A study of Homo sapiens with 9 samples.

Results

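The endoplasmic reticulum (ER) is where secreted and membrane proteins enter the secretory route, are folded and are sent on. The 44 genes described here encode the machinery for this work. They were measured in MM1S, a human multiple myeloma cell line in long use, and were chosen by gene symbol from a list of ER folding, secretion and unfolded protein response genes. All 44 were found among the 58387 genes of the table, and all 44 were among the 16600 genes that passed the filter on low counts. RNA-seq libraries came from 3 groups of MM1S cells grown in regular serum-containing medium, with no ER stressor named. KD_Rescued cells carried the shRNA against PHF19 together with an shRNA-resistant PHF19 (2 libraries), PHF19_KD cells carried the shRNA alone (3 libraries), and shEV cells carried the empty lentiviral vector (3 libraries). PHF19 belongs to the accessory proteins of Polycomb repressive complex 2, which places methyl groups on lysine 27 of histone H3. The labels do not say whether a group was a single clone or how many hairpins were used, and the names of the 3 PHF19_KD libraries share a stem. A ninth library bears contradictory labels, a knockdown by its title and an add-back of shRNA-resistant PHF19 by its shRNA field, and it entered no test.

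As background, a new secretory protein is recognised by the signal recognition particle, threaded through the SEC61 channel, cut by signal peptidase, folded by BiP and other chaperones with disulfide isomerases, and exported in COPII-coated vesicles, while failed proteins are withdrawn for degradation. When unfolded proteins build up, the sensors IRE1 (gene ERN1), PERK (EIF2AK3) and ATF6 start the unfolded protein response, in which XBP1, ATF4 and ATF6 raise many of the genes described here. Plasma cells and myeloma cells make large amounts of immunoglobulin and are known for a large ER and a dependence on this system.

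Many of these genes are known to respond through the ER stress response element, a CCAAT box and a CCACG half-site held apart by a fixed spacer. Promoter windows from RefSeq (GRCh38.p14, 250 bases before to 50 after the gene start) were matched for 39 of the 44 genes; PDIA3, DERL1, DERL3, SEC24D and SPCS1 were not searched. The full element, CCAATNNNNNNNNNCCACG on either strand, stood in 6 of these 39 windows (15.4%), against 25 of 27305 genes (0.0916%). The 6 genes were HSPA5, HSP90B1, CALR, CANX, CRELD2 and PDIA6. The compact variant known as ERSE-II, ATTGGNCCACG on either strand, was in 3 of 39 (7.69%), namely HERPUD1, HYOU1 and SDF2L1, against 19 of 27305 genes (0.0696%). The half-site CCACG alone, which both elements contain, was in 30 of 39 windows (76.9%) and in 42.1% of genes. The 39 genes are also counted within the 27305. They were listed partly as unfolded protein response genes, so these shares describe the list and test nothing. A match is a description of the letters and not a binding site. The matches in HSP90B1, CANX and HYOU1 are not printed. The other 6 are printed, with the element in capitals and its flanks in lower case, and were picked with the values of their genes known. Each is written 5′ to 3′ in the direction of its gene, and an element that reads on the opposite strand appears as its reverse complement. They lie at chr9:125241376-125241424 on the minus strand (HSPA5), chr22:49918539-49918587 on the plus strand (CRELD2), chr19:12938369-12938417 on the plus strand (CALR), chr2:10812838-10812886 on the minus strand (PDIA6), chr22:21642099-21642139 on the plus strand (SDF2L1) and chr16:56932010-56932050 on the plus strand (HERPUD1).
HSPA5: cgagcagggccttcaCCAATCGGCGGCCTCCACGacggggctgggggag
CRELD2: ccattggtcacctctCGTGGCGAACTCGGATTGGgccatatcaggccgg
CALR: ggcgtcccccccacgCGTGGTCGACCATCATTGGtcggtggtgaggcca
PDIA6: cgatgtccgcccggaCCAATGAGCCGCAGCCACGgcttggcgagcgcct
SDF2L1: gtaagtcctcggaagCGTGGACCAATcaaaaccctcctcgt
HERPUD1: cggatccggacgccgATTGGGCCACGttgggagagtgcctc

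PHF19 itself was at 220.0 and 218 CPM (counts scaled to a common library size) in KD_Rescued, at 26.0, 27.5 and 27.3 CPM in PHF19_KD and at 123, 124 and 103 CPM in shEV, so KD_Rescued cells held more than the control. The libraries totalled 23644123 to 23751353 counts in KD_Rescued, 10609798 to 12024913 in PHF19_KD and 16974728 to 22739741 in shEV. The share of counts from mitochondrially encoded genes was 5.08% ± 0.133 in KD_Rescued (SD, n = 2), 9.60% ± 0.518 in PHF19_KD and 3.16% ± 0.279 in the shEV controls (SD, n = 3 for both). Per the library names, both KD_Rescued libraries came from another lane than the rest, so an effect of the lane cannot be told apart from one of the rescue. Markers of plasma cells and myeloma lines summed to 4108 to 4200.1 CPM in KD_Rescued cells, 4284 to 4347 CPM in PHF19_KD and 4393 to 4462 CPM in shEV, although IGHA1 and IGLC2 stayed at or below 6.22 CPM in every library. The markers moved in both directions within that sum: of 10 tested, 4 rose and 4 fell in PHF19_KD against shEV, with CD38 at 1.16 ± 0.04 and SDC1 at 0.60 ± 0.06 (log2, SE) against TNFRSF17 at -1.07 ± 0.05 and IRF4 at -0.78 ± 0.04. Those shares of 40% and 40% were near the ones over all tested genes, of which 34.9% rose and 34.2% fell. Marker lists of T cells, monocytes, epithelial cells, fibroblasts and erythroid cells summed to at most 2.79 CPM, the highest being the fibroblast list in PHF19_KD, where COL1A1 was at 2.23 to 2.79 CPM against 0.362 to 0.767 CPM in shEV. One control library stood apart: the chi-square per degree of freedom between libraries of a group was 6.45 and 7.93 for the pairs with shEV replicate 3 and 1.38 to 2.24 for the other pairs. Without it, 36 of the 44 genes described below were called lower and 5 higher in PHF19_KD against shEV, 39 higher and 3 lower in KD_Rescued against PHF19_KD, and 32 higher and 6 lower in KD_Rescued against shEV. Of all 16849 genes tested without it, 5899 were lower and 5855 higher in PHF19_KD against shEV. In KD_Rescued, 6004 were higher and 5318 lower against PHF19_KD, and 3714 were higher and 3825 lower against shEV. The part of these markers and of sequencing depth in the results was not tested. Counts of HSPA5, DNAJB9, DNAJB11, PDIA3, PDIA6, SRPRB, SSR1, SSR3, SPCS1, SPCS2, SPCS3, SEC24A, SYVN1, DERL1, DERL2 and EIF2AK3 were not whole numbers in any of the 9 libraries, as happens when a counter splits reads between genes, so their levels are less certain.

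Taken as 1 sum, the 44 genes took 2.12% to 2.13% of all counts in KD_Rescued, 1.16% to 1.17% in PHF19_KD and 1.68% to 1.78% in shEV. Their summed normalised level was 20869 and 21071 CPM in KD_Rescued cells, 11493, 11604 and 11539 CPM in PHF19_KD and 17292, 17557 and 17806 CPM in shEV. The 3 groups did not overlap. The PHF19_KD mean of 11545 ± 55.5 CPM (SD, n = 3) was 65.8% of the shEV mean of 17552 ± 257 CPM (SD, n = 3), and the KD_Rescued mean of 20970.2 ± 143 CPM (SD, n = 2) was 119% of it. Without shEV replicate 3 the shares were 66.3% for PHF19_KD and 120.3% for KD_Rescued. Scaled by column totals instead, they were 67.6% for PHF19_KD and 123% for KD_Rescued, and leaving mitochondrially encoded genes out of those totals gave 72.4% for PHF19_KD and 126% for KD_Rescued, with the groups in the same order. These are bulk libraries, in which a large change in some cells and a smaller change in all cells cannot be told apart. The levels are relative to each library's counts, so a change in total RNA per cell does not show in them. Abundant genes weigh most in such a sum, so counts of genes are given beside it. A gene is said to rise or fall where its Benjamini-Hochberg adjusted p, from the edgeR quasi-likelihood test over all 16600 genes, was under 0.05.

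Between PHF19_KD and shEV, the question was which ER genes differ when PHF19 is depleted. Chaperones, disulfide isomerases, the translocation machinery and COPII genes were mostly lower in PHF19_KD, and the stress sensor gene ERN1 was higher. Of the 44 genes, 36 fell (81.8%), where 34.2% of all tested genes fell, and 26 fell by at least 1.5-fold, against 19.8% of all genes. Only 4 rose, where 34.9% of all genes rose, and 1 of them, ERN1, rose by at least 1.5-fold, against 24.3% of all genes. The median log2 fold change was -0.72 over the 44 genes and 0.03 over all genes, and single values ran from -1.62 to 0.81. All PHF19_KD libraries lay below all shEV libraries for 36 of the genes and above them for 4, against 35.3% and 36.6% of all genes. With upper-quartile scaling, which moved the median of all genes to 0.19, the members' median was -0.56 and 32 genes fell while 7 rose; without mitochondrially encoded genes, or without a filter on low counts, 2 rose. Under that scaling 60.6% of all calls were higher, against 50.5% with the main scaling.

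Between KD_Rescued and PHF19_KD, the question was which transcripts shift once PHF19 is supplied again. Nearly the whole list was higher in KD_Rescued, led by DERL3, SDF2L1, MANF and CRELD2, and ERN1 was lower. Of the 44 genes, 39 rose (88.6%), where 33.9% of all tested genes rose, and 31 rose by at least 1.5-fold, against 19.6% of all genes. In the other direction 3 genes fell, ERN1, ATF6 and HERPUD1, where 29.5% of all genes fell, and ERN1 alone fell by at least 1.5-fold, against 19.6% of all genes. The median log2 fold change was 0.96 over the 44 genes and 0.03 over all genes, with a range of -1.28 to 2.57. Both KD_Rescued libraries lay above all PHF19_KD libraries for 40 genes and below them for 3, against 40.8% and 36.4% of all genes. Upper-quartile scaling moved the median of all genes to -0.12 and that of the members to 0.80, with 35 rises and 4 falls (1 fall without a filter on low counts), and 42.1% of all calls were then higher, against 53.4% with the main scaling. This comparison shares the PHF19_KD libraries with the one before it, so opposite directions in the pair are not independent of each other.

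Between KD_Rescued and shEV, the question was whether rescued cells returned to the level of the control. BiP and its partners, the disulfide isomerases, MANF, CRELD2 and DERL3 were higher in KD_Rescued than in shEV, and ERN1 was lower. Of the 44 genes, 30 rose (68.2%), where 20.7% of all tested genes rose, and 8 rose by at least 1.5-fold, against 10.4% of all genes. Those 8 were HSPA5, HYOU1, DNAJB9, SDF2L1, CRELD2, MANF, DERL3 and SEC61B. Falls were called for ERN1, DERL1, SEL1L, EDEM1, SPCS1 and SPCS2, 6 genes where 19.1% of all genes fell. The median was 0.27 over the 44 genes and 0.02 over all genes, with a range of -0.47 to 1.58. KD_Rescued libraries lay above all shEV libraries for 31 genes and below them for 7, against 32.5% and 29.2% of all genes. Leaving out either KD_Rescued library leaves 1 in that group. The members' median was then 0.28 without replicate 1 and 0.24 without replicate 2, where that of all genes was 0.01 in both. The call held in all 17 alternative settings for 22 of the 30 rises and for 4 of the 6 falls; the exceptions are named with their genes below.

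**Figure D1:**
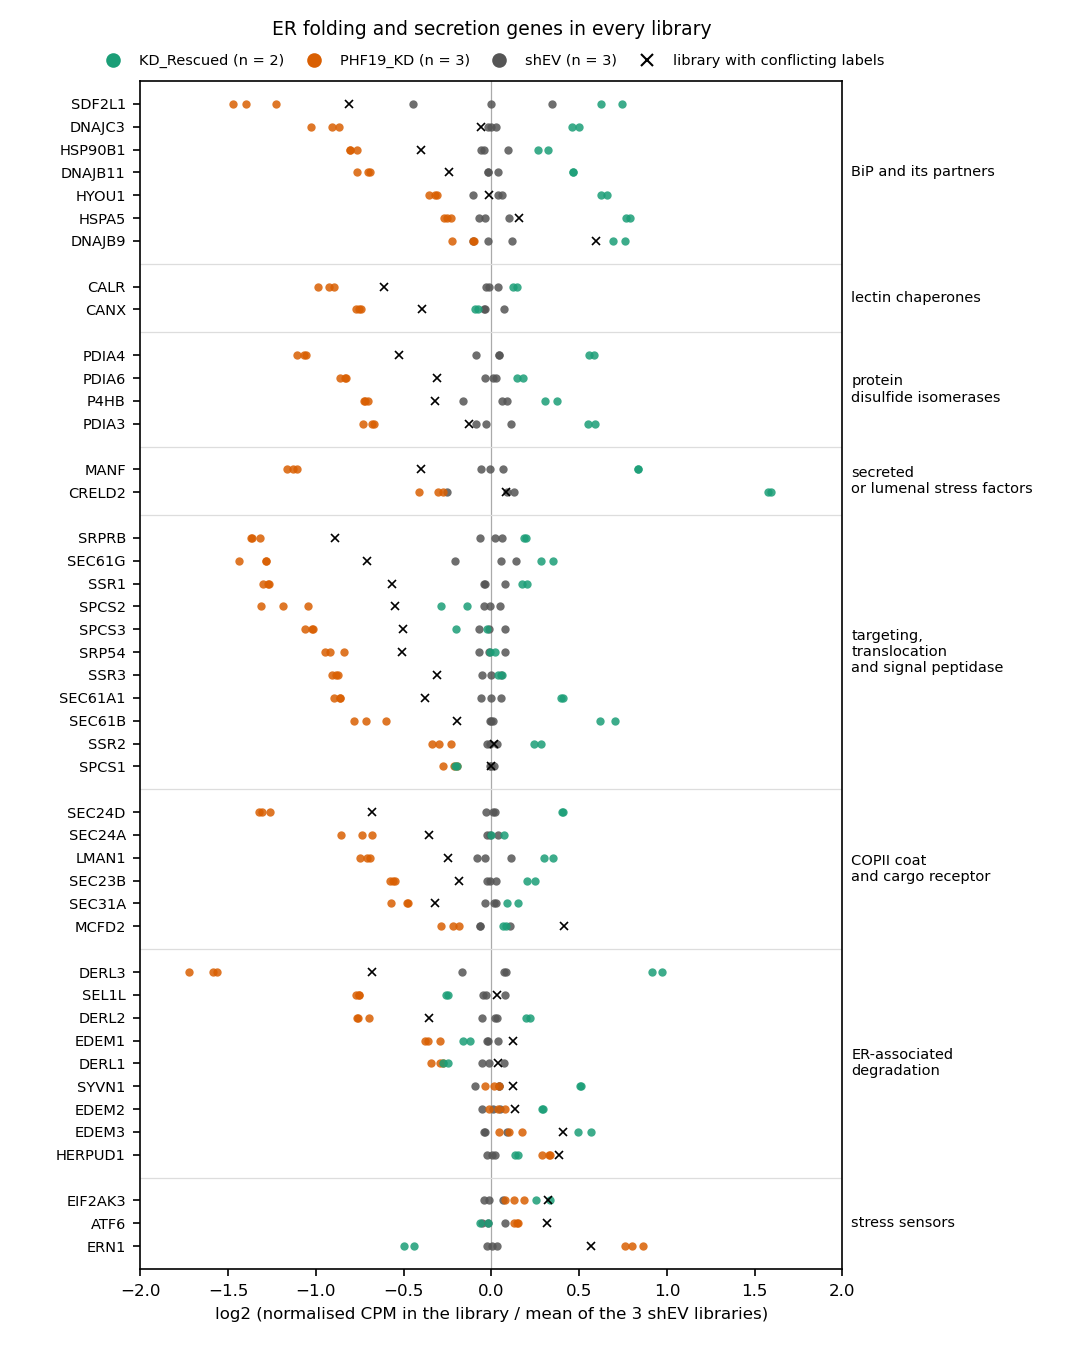
Each row is 1 of the 44 genes, grouped by role, and each point is 1 library; the horizontal axis is the log2 ratio of the library's normalised CPM to the mean of the 3 shEV libraries. The PHF19_KD points lie left of the shEV points for 36 genes and right of them for 4, and the KD_Rescued points lie right of shEV for 31; crosses mark the library with contradictory labels.

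Among the 3 stress sensor genes, ERN1 moved against most of the list in all 3 comparisons, while ATF6 and EIF2AK3 changed little. ERN1, the kinase and endoribonuclease that splices XBP1 mRNA, was at 169 and 162 CPM in KD_Rescued cells, at 416, 388 and 399.6 CPM in PHF19_KD and at 234, 229.7 and 225 CPM in shEV. The 3 groups were separate, with PHF19_KD highest and KD_Rescued lowest. On the log2 scale ERN1 differed by 0.81 ± 0.04 (SE) for PHF19_KD against shEV (edgeR quasi-likelihood adjusted p = 7.18e-09), by -1.28 ± 0.05 for KD_Rescued against PHF19_KD (adjusted p = 5.93e-10, same test) and by -0.47 ± 0.05 for KD_Rescued against shEV (adjusted p = 1.91e-05, same test). ATF6, a transcription factor held in the ER membrane until it is cut loose in the Golgi, had 155 and 159.7 CPM in KD_Rescued cells, 177, 179.7 and 179 CPM in PHF19_KD and 156, 159.9 and 171 CPM in shEV. PHF19_KD stood above both other groups, which overlapped, and the differences were small, at 0.14 ± 0.05 (SE) between PHF19_KD and shEV (edgeR adjusted p = 0.0163) and -0.18 ± 0.05 for KD_Rescued against PHF19_KD (adjusted p = 0.00749, same test). EIF2AK3, which encodes PERK, the kinase that slows translation by phosphorylating eIF2α, had 129 and 136 CPM in KD_Rescued cells, 118, 114 and 123 CPM in PHF19_KD and 105, 107 and 113 CPM in shEV. KD_Rescued was highest, unlike for the other sensors, with 0.29 ± 0.05 (SE) between KD_Rescued and shEV (edgeR adjusted p = 0.00138), 0.16 ± 0.06 for KD_Rescued against PHF19_KD (adjusted p = 0.0217) and 0.13 ± 0.05 between PHF19_KD and shEV (adjusted p = 0.0423). The ATF6 rise in PHF19_KD lost its call in 4 of 17 settings, without PHF19_KD replicate 3 (0.14, edgeR adjusted p = 0.0536), without shEV replicate 1 (0.11, adjusted p = 0.0642), without mitochondrially encoded genes (0.11, adjusted p = 0.0593) and without a filter (0.05, adjusted p = 0.569). The ATF6 fall in KD_Rescued against PHF19_KD was lost without a filter (-0.14, edgeR adjusted p = 0.0587) and without KD_Rescued replicate 1 (-0.16, adjusted p = 0.0944). The EIF2AK3 rise in PHF19_KD against shEV was lost in 11 of 17 settings, with edgeR or DESeq2 adjusted p between 0.0566 and 0.699. Its rise in KD_Rescued over PHF19_KD was lost in 7 of 17.

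BiP and its partners form the main folding system of the ER lumen. Of the 7 genes, 6 fell in PHF19_KD against shEV (median log2 fold change -0.72), 7 rose in KD_Rescued against PHF19_KD (1.08) and 7 rose in KD_Rescued against shEV (0.64). HSPA5, which encodes BiP, the lumenal Hsp70 that also holds the sensors inactive, was at 1319.5 and 1340.3 CPM in KD_Rescued cells, at 662, 643 and 652 CPM in PHF19_KD and at 738, 756 and 833 CPM in shEV. The 3 groups were separate, with the wider gap above shEV. The log2 differences were -0.25 ± 0.05 (SE) for PHF19_KD against shEV (edgeR quasi-likelihood adjusted p = 0.000492), 1.03 ± 0.05 for KD_Rescued against PHF19_KD (adjusted p = 6.4e-09) and 0.78 ± 0.05 for KD_Rescued against shEV (adjusted p = 9.19e-07). With upper-quartile scaling the fall of HSPA5 in PHF19_KD was -0.10 and lost its call (edgeR adjusted p = 0.117).

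Among the partners, HYOU1, a large Hsp70 relative that recharges BiP with nucleotide, resembled it. HYOU1 had 716 and 734 CPM in KD_Rescued cells, 364, 375 and 372 CPM in PHF19_KD and 477, 484 and 433 CPM in shEV, again without overlap, and differed by 0.64 ± 0.05 (log2, SE) between KD_Rescued and shEV (edgeR adjusted p = 3.29e-06) and by -0.33 ± 0.05 between PHF19_KD and shEV (adjusted p = 5.19e-05). DNAJB9, a J-domain partner that recruits BiP to IRE1, had 132 and 126 CPM in KD_Rescued cells, 72.8, 72.6 and 66.8 CPM in PHF19_KD and 72.5, 76.9 and 84.7 CPM in shEV. PHF19_KD and shEV overlapped for DNAJB9, with a difference of -0.14 ± 0.06 (edgeR adjusted p = 0.0685) that became 0.01 with upper-quartile scaling and was called lower without mitochondrially encoded genes (-0.17, adjusted p = 0.0318), without a filter (-0.23, adjusted p = 0.000431) and without shEV replicate 1 (-0.19, adjusted p = 0.0234), whereas KD_Rescued was above shEV by 0.72 ± 0.07 (adjusted p = 8.33e-06). SDF2L1, which works with the J-domain protein DNAJB11, had 77.6 and 71.4 CPM in KD_Rescued cells, 16.7, 19.8 and 17.6 CPM in PHF19_KD and 46.4, 58.9 and 34.1 CPM in shEV. No groups overlapped, but the shEV libraries were spread more widely for SDF2L1 than for any other of the 44 genes, with an SD of 26.7% of the mean. SDF2L1 had the largest changes of its role, -1.37 ± 0.21 (SE) between PHF19_KD and shEV (edgeR adjusted p = 0.000701) and 2.04 ± 0.22 for KD_Rescued against PHF19_KD (adjusted p = 0.000102). Its rise of 0.68 ± 0.19 in KD_Rescued over shEV (edgeR adjusted p = 0.0262) lost its call in 5 of 17 settings (adjusted p between 0.0589 and 0.146), among them without KD_Rescued replicate 1 (0.61, adjusted p = 0.131), without KD_Rescued replicate 2 (0.73, adjusted p = 0.0822) and without shEV replicate 1 (0.67, adjusted p = 0.0660). HSP90B1, the ER form of Hsp90, and the J-domain genes DNAJB11 and DNAJC3 differed by -0.79 ± 0.05, -0.72 ± 0.04 and -0.93 ± 0.05 (log2, SE) between PHF19_KD and shEV, and by 0.29 ± 0.05, 0.47 ± 0.04 and 0.48 ± 0.05 between KD_Rescued and shEV, all 6 called. Windows of both kinds of element were found in this role, the full element in HSPA5 and HSP90B1 and ERSE-II in HYOU1 and SDF2L1.

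The lectin chaperones calreticulin (CALR) and calnexin (CANX) hold glycoproteins by their sugar while they fold. CALR had 1421 and 1442 CPM in KD_Rescued cells, 657, 701 and 685 CPM in PHF19_KD and 1292, 1339 and 1277 CPM in shEV. The groups were separate, PHF19_KD far below the others and KD_Rescued just above shEV. The log2 differences were -0.94 ± 0.04 (SE) for PHF19_KD against shEV (edgeR quasi-likelihood adjusted p = 1.17e-09), 1.07 ± 0.04 for KD_Rescued against PHF19_KD (adjusted p = 1.01e-09) and 0.14 ± 0.04 for KD_Rescued against shEV (adjusted p = 0.0286), the last of which was lost in 9 of 17 settings (adjusted p up to 0.329). CANX differed by -0.76 ± 0.04 between PHF19_KD and shEV (adjusted p = 9.36e-09, same test) and by 0.67 ± 0.05 for KD_Rescued against PHF19_KD (adjusted p = 8.65e-08). Between KD_Rescued and shEV, CANX differed by -0.08 ± 0.05 (edgeR adjusted p = 0.164), which was not called. The summed level of this pair was 102% of shEV in KD_Rescued and 56.0% of shEV in PHF19_KD.

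Protein disulfide isomerases form and rearrange the disulfide bonds that antibodies and other secreted proteins need. Their 4 members fell together in PHF19_KD against shEV (median -0.78), rose together in KD_Rescued against PHF19_KD (1.16) and rose in KD_Rescued against shEV (0.45). PDIA4, which carries several thioredoxin-like domains, changed most in the comparisons with PHF19_KD, with 896 and 912 CPM in KD_Rescued cells, 283, 293 and 291 CPM in PHF19_KD and 627, 627 and 572 CPM in shEV. No libraries of the 3 groups overlapped for PDIA4. It differed by -1.07 ± 0.04 (log2, SE) for PHF19_KD against shEV (edgeR quasi-likelihood adjusted p = 9.43e-10), by 1.64 ± 0.05 for KD_Rescued against PHF19_KD (adjusted p = 6.38e-11) and by 0.57 ± 0.05 for KD_Rescued against shEV (adjusted p = 4.98e-06). PDIA3, the isomerase that works beside the lectin chaperones, had 483 and 498 CPM in KD_Rescued cells, 199, 208 and 206 CPM in PHF19_KD and 311, 323 and 357 CPM in shEV. The groups did not overlap here either, and KD_Rescued differed from shEV by 0.57 ± 0.06 (edgeR adjusted p = 1.5e-05). P4HB, the classical isomerase and also a subunit of prolyl 4-hydroxylase, differed by -0.72 ± 0.06 between PHF19_KD and shEV and by 0.34 ± 0.06 between KD_Rescued and shEV, and PDIA6 by -0.84 ± 0.04 and 0.16 ± 0.04, all called. For PDIA6 the rise over shEV was lost in 4 of 17 settings (edgeR adjusted p between 0.0530 and 0.145).

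MANF and CRELD2, small ER proteins that are made and secreted under ER stress, stood out in KD_Rescued. MANF had 153 and 153 CPM in KD_Rescued cells, 39.8, 39.1 and 38.3 CPM in PHF19_KD and 85.3, 89.6 and 82.2 CPM in shEV. CRELD2 had 95.3 and 96.7 CPM in KD_Rescued cells, 25.9, 26.4 and 24.0 CPM in PHF19_KD and 35.0, 34.1 and 26.9 CPM in shEV. Both were separate between all groups, but for CRELD2 the lowest shEV library was close to the highest PHF19_KD library. MANF differed by -1.13 ± 0.05 (log2, SE) for PHF19_KD against shEV (edgeR quasi-likelihood adjusted p = 1.79e-09), by 1.97 ± 0.05 for KD_Rescued against PHF19_KD (adjusted p = 3.2e-11) and by 0.84 ± 0.05 for KD_Rescued against shEV (adjusted p = 4.5e-07). CRELD2 differed by -0.34 ± 0.10 between PHF19_KD and shEV (edgeR adjusted p = 0.00792), a call lost with upper-quartile scaling (-0.18, adjusted p = 0.0877). Its differences of 1.92 ± 0.10 between KD_Rescued and PHF19_KD (edgeR adjusted p = 8.77e-09) and 1.58 ± 0.09 for KD_Rescued against shEV (adjusted p = 4.25e-07) were called in all settings. That last value was the highest of the 44 genes in KD_Rescued against shEV. The other genes with a match to the full element differed by 0.78 (HSPA5), 0.29 (HSP90B1), 0.16 (PDIA6), 0.14 (CALR) and -0.08 (CANX, not called) in that comparison. The part of the element in these values was not tested.

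**Figure D2:**
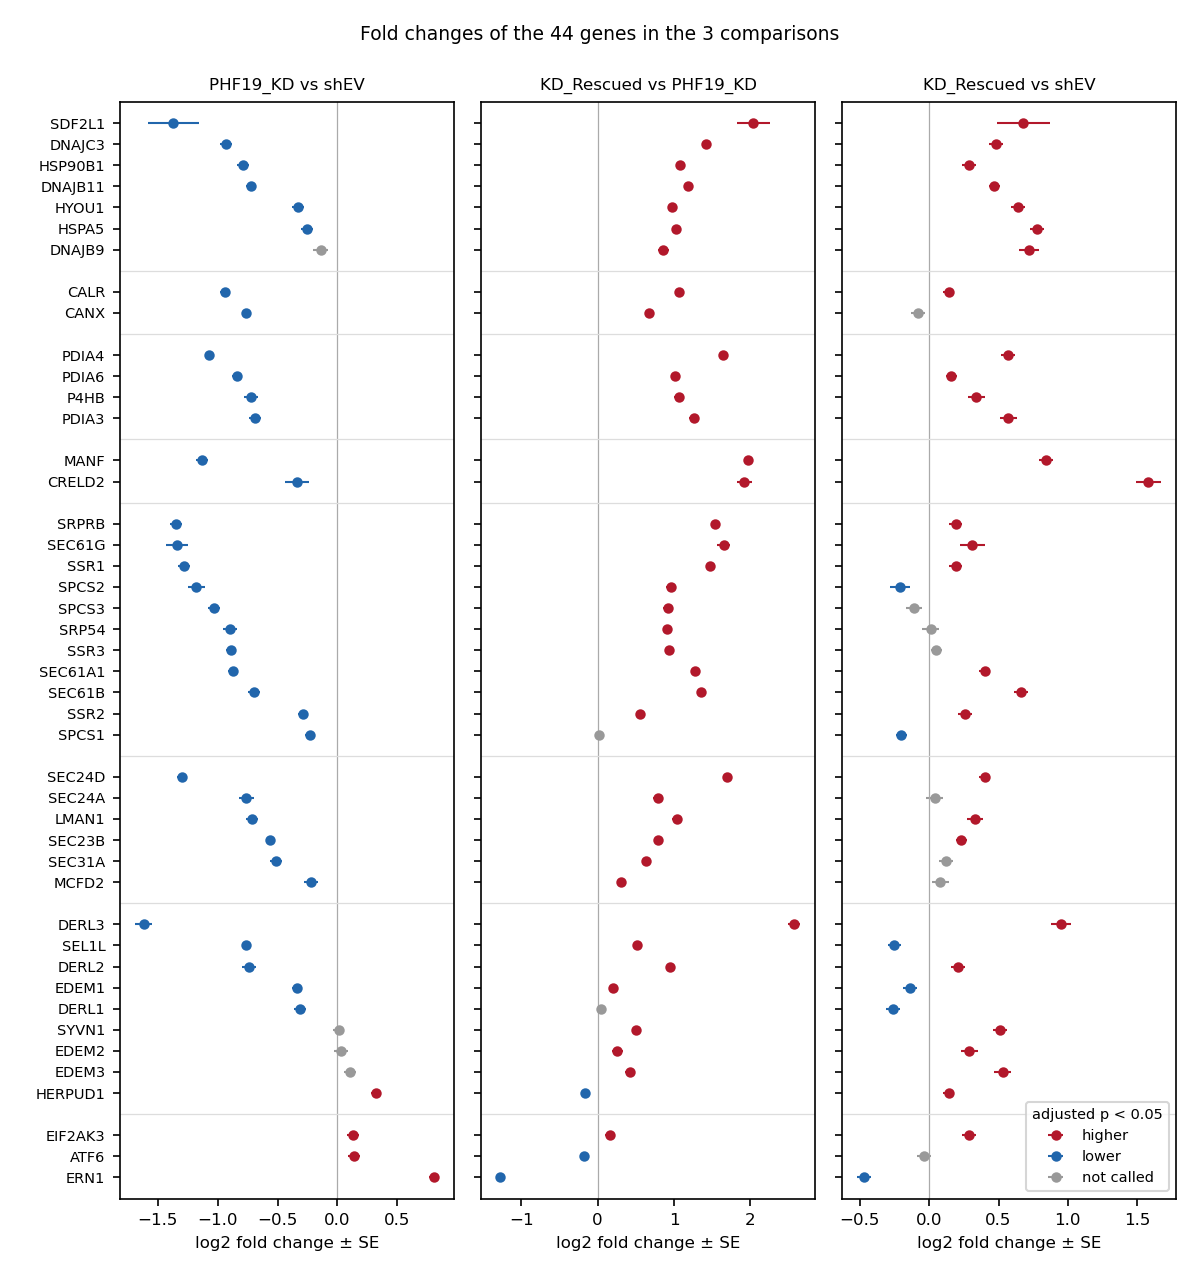
Log2 fold changes with their standard errors for the 44 genes, in the same order as in the plot of levels, with a panel for each comparison; colour marks the call at an adjusted p under 0.05. Falls fill the left panel (36 genes), rises the middle panel (39), and the right panel holds 30 rises and 6 falls; the panels have different horizontal scales.

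Targeting, translocation and signal cleavage genes fell as a block in PHF19_KD. All 11 members were lower than in shEV (median -0.90), 10 rose in KD_Rescued against PHF19_KD (0.96), and 6 rose and 2 fell in KD_Rescued against shEV (0.19). SRPRB, the membrane anchor of the signal recognition particle receptor, had 157 and 158 CPM in KD_Rescued cells, 53.4, 53.7 and 55.3 CPM in PHF19_KD and 132, 139.8 and 144 CPM in shEV. PHF19_KD was far below both other groups, and KD_Rescued was just above shEV. SRPRB differed by -1.35 ± 0.05 (log2, SE) for PHF19_KD against shEV (edgeR quasi-likelihood adjusted p = 2.91e-10), by 1.54 ± 0.05 for KD_Rescued against PHF19_KD (adjusted p = 2.2e-10) and by 0.19 ± 0.05 for KD_Rescued against shEV (adjusted p = 0.0106, lost in 6 of 17 settings). The 3 subunits of the SEC61 channel all fell in PHF19_KD. SEC61G, the small gamma subunit, had 191 and 200.0 CPM in KD_Rescued cells, 64.4, 58.0 and 64.4 CPM in PHF19_KD and 163, 136 and 173 CPM in shEV, and differed by -1.34 ± 0.09 between PHF19_KD and shEV (edgeR adjusted p = 1.67e-07) and by 1.65 ± 0.09 for KD_Rescued against PHF19_KD (adjusted p = 7.43e-08). SEC61B, the beta subunit, had 231 and 245 CPM in KD_Rescued cells, 87.4, 99.2 and 91.5 CPM in PHF19_KD and 149.6, 150.3 and 151 CPM in shEV. SEC61B differed by -0.70 ± 0.05 between PHF19_KD and shEV (edgeR adjusted p = 1.59e-07), and was 0.66 ± 0.05 above shEV in KD_Rescued (adjusted p = 3.73e-06), where SEC61G was 0.31 ± 0.09 above it (adjusted p = 0.0159, lost in 2 of 17 settings); the difference between the genes was not tested. SEC61A1, the pore subunit, differed by -0.87 ± 0.04 between PHF19_KD and shEV and by 0.40 ± 0.04 between KD_Rescued and shEV, both called.

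Within the TRAP complex, which helps signal sequences open the channel, SSR1 differed by -1.28 ± 0.05 (log2, SE), SSR3 by -0.89 ± 0.04 and SSR2 by -0.29 ± 0.04 between PHF19_KD and shEV, all called. SSR1 was 0.19 ± 0.05 above shEV in KD_Rescued, a call lost in 5 of 17 settings. SRP54, the subunit of the signal recognition particle that binds signal sequences, differed by -0.90 ± 0.06 between PHF19_KD and shEV and by 0.01 ± 0.06 between KD_Rescued and shEV, which was not called and changed sign across settings. The signal peptidase subunits split. SPCS2 had 187 and 169 CPM in KD_Rescued cells, 83.0, 100 and 90.4 CPM in PHF19_KD and 200.4, 213 and 205 CPM in shEV, with PHF19_KD below both other groups. SPCS3 had 442 and 389.8 CPM in KD_Rescued cells, 222, 215 and 221 CPM in PHF19_KD and 428, 445 and 473 CPM in shEV. Both were lowest in PHF19_KD, with differences from shEV of -1.18 ± 0.07 for SPCS2 (edgeR quasi-likelihood adjusted p = 1.24e-08) and -1.03 ± 0.05 for SPCS3 (adjusted p = 7.39e-09). SPCS1 had 280.1 and 283 CPM in KD_Rescued cells, 268, 279.8 and 283 CPM in PHF19_KD and 322, 327 and 324 CPM in shEV. For SPCS1 KD_Rescued and PHF19_KD overlapped, at 0.02 ± 0.04 (edgeR adjusted p = 0.64), and both were below shEV, at -0.20 ± 0.04 for KD_Rescued (adjusted p = 0.00301) and -0.23 ± 0.04 for PHF19_KD (adjusted p = 0.00023). With upper-quartile scaling SPCS1 was lower in KD_Rescued than in PHF19_KD (-0.13, edgeR adjusted p = 0.026) and its fall in PHF19_KD against shEV was not called (-0.07, adjusted p = 0.143). SPCS2 was also below shEV in KD_Rescued, at -0.21 ± 0.07 (edgeR adjusted p = 0.0293), a call lost in 2 of 17 settings.

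The COPII coat carries folded cargo out of the ER. The 6 genes of the coat and of a cargo receptor all fell in PHF19_KD against shEV (median -0.64) and all rose in KD_Rescued against PHF19_KD (0.79). SEC24D, a coat subunit that selects cargo, had 225 and 224 CPM in KD_Rescued cells, 70.7, 67.7 and 68.7 CPM in PHF19_KD and 171, 166 and 172 CPM in shEV. The groups were far apart. SEC24D differed by -1.30 ± 0.04 (log2, SE) for PHF19_KD against shEV (edgeR quasi-likelihood adjusted p = 1.19e-10), by 1.70 ± 0.05 for KD_Rescued against PHF19_KD (adjusted p = 2.87e-11) and by 0.40 ± 0.04 for KD_Rescued against shEV (adjusted p = 2.84e-05). Its paralog SEC24A had 84.5 and 80.1 CPM in KD_Rescued cells, 50.1, 44.3 and 48.1 CPM in PHF19_KD and 79.8, 78.8 and 82.4 CPM in shEV, so that KD_Rescued and shEV overlapped. The inner coat gene SEC23B differed by -0.56 ± 0.04 between PHF19_KD and shEV and by 0.23 ± 0.04 between KD_Rescued and shEV, both called, and the outer coat gene SEC31A by -0.51 ± 0.05, called, and 0.12 ± 0.05 (edgeR adjusted p = 0.0671). LMAN1 and MCFD2 together form a cargo receptor for blood clotting factors and other glycoproteins. LMAN1 had 536 and 519 CPM in KD_Rescued cells, 251, 258 and 260.4 CPM in PHF19_KD and 398, 410.2 and 454 CPM in shEV. MCFD2 had 108 and 109 CPM in KD_Rescued cells, 88.4, 90.8 and 84.4 CPM in PHF19_KD and 98.5, 98.4 and 111 CPM in shEV, so that KD_Rescued and shEV overlapped. Without shEV replicate 3, KD_Rescued was called above shEV for MCFD2 (0.14, edgeR adjusted p = 0.0086) and for SEC31A (0.12, adjusted p = 0.0243). LMAN1 fell by 0.71 on the log2 scale in PHF19_KD against shEV and MCFD2 fell by 0.22, and the MCFD2 call was lost with upper-quartile scaling or with a filter at 5 CPM (edgeR adjusted p between 0.0664 and 0.347).

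ER-associated degradation, which pulls failed proteins back into the cytosol for the proteasome, was mixed between PHF19_KD and shEV. Of its 9 members, 5 fell, 1 rose and 3 were not called in PHF19_KD against shEV (median -0.31). DERL3, a derlin of the retrotranslocation complex that is enriched in secretory cells, had the largest change of all 44 genes both in PHF19_KD against shEV and in KD_Rescued against PHF19_KD. It had 256 and 267 CPM in KD_Rescued cells, 45.3, 46.0 and 41.2 CPM in PHF19_KD and 144, 143 and 121 CPM in shEV. The groups were widely separate. DERL3 differed by -1.62 ± 0.07 (log2, SE) for PHF19_KD against shEV (edgeR quasi-likelihood adjusted p = 2.83e-09), by 2.57 ± 0.08 for KD_Rescued against PHF19_KD (adjusted p = 1.27e-10) and by 0.95 ± 0.07 for KD_Rescued against shEV (adjusted p = 2.81e-06). Its relatives changed less. DERL2 had 62.9 and 61.8 CPM in KD_Rescued cells, 31.7, 31.8 and 33.3 CPM in PHF19_KD and 54.6, 52.0 and 55.2 CPM in shEV, and its rise in KD_Rescued over shEV lost its call in 4 of 17 settings. DERL1 had 156 and 159 CPM in KD_Rescued cells, 149, 156 and 154 CPM in PHF19_KD and 182, 187 and 199 CPM in shEV. For DERL1 both KD_Rescued libraries lay barely above the PHF19_KD libraries. That difference of 0.04 ± 0.05 was not called (edgeR adjusted p = 0.486, and -0.11 with upper-quartile scaling). Both groups lay below shEV, at -0.26 ± 0.05 for KD_Rescued (edgeR adjusted p = 0.00163) and -0.31 ± 0.05 for PHF19_KD (adjusted p = 8.28e-05).

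SEL1L, the scaffold of the ubiquitin ligase complex, and SYVN1, its catalytic ligase, had different orders of the groups. SEL1L had 442 and 439.5 CPM in KD_Rescued cells, 311, 307 and 311 CPM in PHF19_KD and 508, 513 and 555 CPM in shEV. It fell by 0.76 on the log2 scale in PHF19_KD against shEV (edgeR quasi-likelihood adjusted p = 1.31e-08), and in KD_Rescued it fell by 0.25 against shEV (adjusted p = 0.00139). SYVN1 had 244 and 245 CPM in KD_Rescued cells, 168, 177 and 174 CPM in PHF19_KD and 177, 177 and 161 CPM in shEV, so PHF19_KD and shEV overlapped, at 0.01 ± 0.05 (edgeR adjusted p = 0.848), although with upper-quartile scaling SYVN1 was called higher in PHF19_KD (0.17, adjusted p = 0.00558). SYVN1 was above both in KD_Rescued, by 0.50 ± 0.05 over PHF19_KD (adjusted p = 4.1e-06) and 0.51 ± 0.05 over shEV (adjusted p = 1.73e-05). HERPUD1, a ubiquitin-like adaptor of the same complex and a well-known stress-induced gene, had 631 and 639 CPM in KD_Rescued cells, 703, 724 and 721 CPM in PHF19_KD and 566, 584 and 576 CPM in shEV. It was highest in PHF19_KD with no overlap, the reverse of the other 2 genes with an ERSE-II match, HYOU1 and SDF2L1. HERPUD1 differed by 0.32 ± 0.04 between PHF19_KD and shEV (edgeR adjusted p = 7.84e-06), by -0.17 ± 0.04 for KD_Rescued against PHF19_KD (adjusted p = 0.00267, lost without a filter at 0.0542) and by 0.14 ± 0.04 for KD_Rescued against shEV (adjusted p = 0.0146, lost in 6 of 17 settings).

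The EDEM proteins trim mannose from failed glycoproteins and mark them for removal. EDEM1 had 403 and 391 CPM in KD_Rescued cells, 357, 337 and 341 CPM in PHF19_KD and 433, 430.4 and 450.2 CPM in shEV, and was lower than shEV in both, at -0.14 ± 0.05 (log2, SE) in KD_Rescued (edgeR quasi-likelihood adjusted p = 0.028, lost in 3 of 17 settings) and -0.34 ± 0.04 in PHF19_KD (adjusted p = 1.09e-05). EDEM2 had 35.1 and 35.2 CPM in KD_Rescued cells, 29.5, 30.3 and 28.4 CPM in PHF19_KD and 28.9, 29.7 and 27.6 CPM in shEV, with KD_Rescued alone apart. EDEM3 had 304 and 289 CPM in KD_Rescued cells, 231, 211 and 219.8 CPM in PHF19_KD and 199.5, 199 and 218 CPM in shEV. For both, PHF19_KD and shEV overlapped while KD_Rescued lay above shEV, by 0.29 ± 0.06 for EDEM2 (edgeR adjusted p = 0.00334) and 0.53 ± 0.06 for EDEM3 (adjusted p = 2.26e-05). In PHF19_KD against shEV, EDEM3 was called higher with upper-quartile scaling (0.26, edgeR adjusted p = 0.000931), with a filter at 5 CPM (0.20, adjusted p = 0.00368) and without shEV replicate 3 (0.15, adjusted p = 0.00401), and EDEM2 with upper-quartile scaling alone (0.19, adjusted p = 0.0156). Summed over its 9 genes, the degradation role stood at 109% of shEV in KD_Rescued and 87.1% of shEV in PHF19_KD, where the translocation role stood at 112% in KD_Rescued and 58.1% in PHF19_KD.

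**Figure D3:**
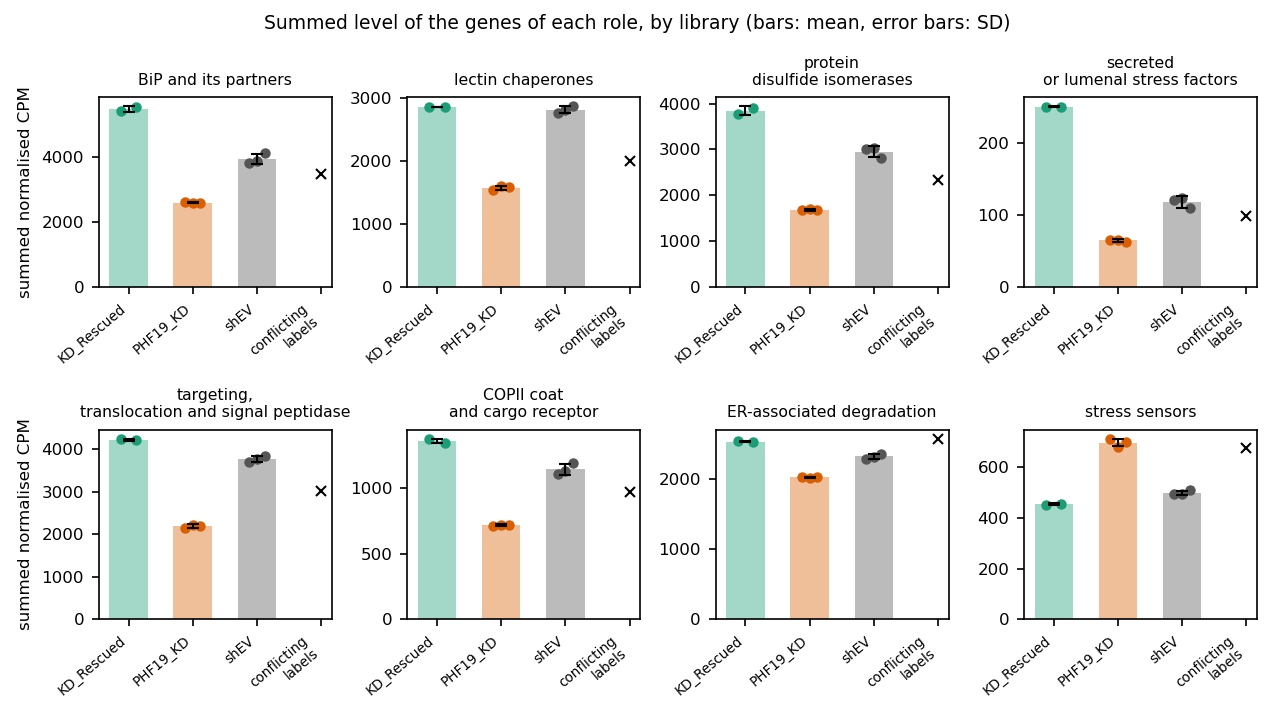
Summed normalised CPM of the genes of each of the 8 roles; points are libraries, bars are means and error bars SD (n = 2, 3 and 3), and the cross is the library with contradictory labels. In PHF19_KD the sums were 54.8% to 65.9% of shEV in 6 roles, 87.1% for degradation and 139.6% for the stress sensors, and in KD_Rescued they were 91.0% of shEV for the sensors and 102% to 212% for the other 7. The sensor sum mostly followed ERN1, with means of 166 CPM in KD_Rescued, 401 CPM in PHF19_KD and 229 CPM in shEV. EIF2AK3 was above shEV in KD_Rescued (means of 132 and 108 CPM).

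Other genes of the same pathways were taken from a list of 116, of which 115 were tested. Against shEV, 73 fell (63.5%, against 34.2% of all tested genes) and 22 rose (19.1%, against 34.9%) in PHF19_KD, with a median of -0.37. In KD_Rescued against shEV, 47 rose (40.9%, against 20.7% of all genes), and 22 fell, which at 19.1% is the share over all genes (median 0.09). Against PHF19_KD, 78 rose (67.8%, against 33.9%) and 19 fell (16.5%, against 29.5%) in KD_Rescued (median 0.39). FKBP11, a prolyl isomerase of secretory cells, had 303 and 305 CPM in KD_Rescued cells, 62.7, 64.7 and 63.0 CPM in PHF19_KD and 184, 188 and 174 CPM in shEV, in the same order as DERL3 and without overlap. MZB1, a BiP cofactor for antibody assembly in B cells and plasma cells, had 1075 and 1122 CPM in KD_Rescued cells, 464, 475 and 463 CPM in PHF19_KD and 836, 837 and 757 CPM in shEV, also without overlap. Targeting and translocation genes again mostly fell, with 11 of 13 genes lower and 0 higher in PHF19_KD against shEV, and the oligosaccharyltransferase, which attaches sugars to new chains, had 7 of 10 lower and 1 higher, its catalytic subunit STT3A among the falls (-0.93 ± 0.04, log2 and SE). SEC11A and SEC11C, the alternative catalytic subunits of signal peptidase, parted in KD_Rescued against PHF19_KD, at -0.34 ± 0.05 and 1.14 ± 0.05, both called. The COPI coat, which returns escaped ER proteins, had 6 of 8 genes lower and 0 higher in PHF19_KD against shEV, and the KDEL receptor gene KDELR1, which recognises them, changed by -1.02 ± 0.05. Rises in PHF19_KD against shEV included the glycan-trimming gene MAN1B1 (1.15 ± 0.06), the sulfhydryl oxidase gene QSOX1 (1.20 ± 0.08) and SEC31B (1.83 ± 0.10), a relative of SEC31A.

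Stress signalling factors outside the 44 genes had 6 rises and 6 falls among 15 in PHF19_KD against shEV, near the shares over all genes (34.9% and 34.2%). XBP1, the factor whose mRNA IRE1 splices, had 877 and 894 CPM in KD_Rescued cells, 1336, 1376 and 1379 CPM in PHF19_KD and 1174, 1219 and 1326 CPM in shEV. Like ERN1 it was lowest in KD_Rescued, with -0.62 ± 0.05 (log2, SE) between KD_Rescued and PHF19_KD (edgeR quasi-likelihood adjusted p = 7.17e-07) and -0.48 ± 0.05 for KD_Rescued against shEV (adjusted p = 3.09e-05); gene counts do not separate spliced from unspliced XBP1. ATF4, the factor translated when PERK is active, had 485 and 493 CPM in KD_Rescued cells, 197, 197 and 201 CPM in PHF19_KD and 356, 351 and 364 CPM in shEV. ATF4 thus followed the order of the chaperone genes, at -0.85 ± 0.04 between PHF19_KD and shEV (edgeR adjusted p = 1.68e-09) and 0.45 ± 0.04 for KD_Rescued against shEV (adjusted p = 7.77e-06). DDIT3, the stress factor CHOP, had 12.9 and 13.1 CPM in KD_Rescued cells, 13.5, 11.8 and 10.0 CPM in PHF19_KD and 5.68, 5.68 and 6.69 CPM in shEV, so both groups with the shRNA were above shEV. PPP1R15A, which encodes the phosphatase subunit that reverses PERK's mark, differed by -0.84 ± 0.05 between KD_Rescued and shEV (edgeR adjusted p = 7.15e-07) and by -0.04 ± 0.05 between PHF19_KD and shEV (adjusted p = 0.494).

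**Figure D4:**
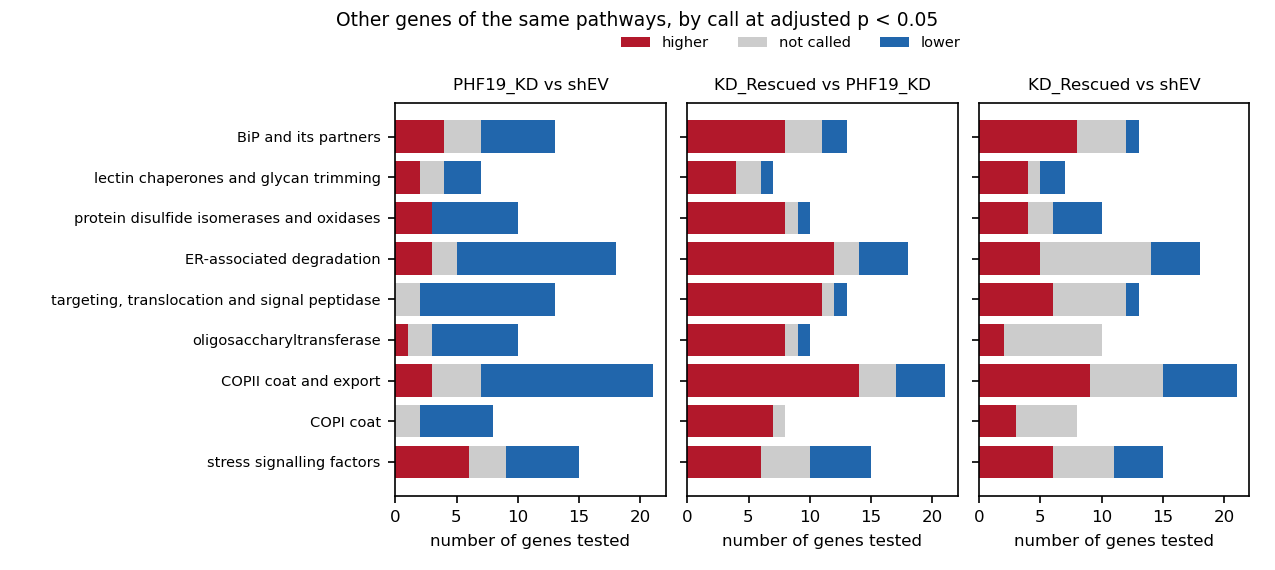
Number of other pathway genes that were higher, not called or lower at an adjusted p under 0.05, by role (rows) and comparison (panels); the 44 genes themselves are not counted. Lower calls fill most of the translocation bar (11 of 13) and the COPI bar (6 of 8) in PHF19_KD against shEV, while the stress signalling bar is split evenly (6 and 6).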

How the data were processed

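RNA-seq of MM1S cells was given as estimated counts per gene in 9 libraries; the authors deposited these estimated counts unscaled between libraries, per the file headers. CASAVA, RSEM and hg19 are named, without versions or roles, in the submitters' processing notes, and the table's name refers to salmon, leaving the counting program unsettled. The sources used here name neither annotation nor filters nor strand setting, and reads of overlapping or antisense genes cannot be told apart. Between 15.6% and 19.4% of a library's values were not whole within a tolerance of 0.01; of the 44 genes, 10 were whole in all libraries and 21 were not whole in at least 5.

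Estimated counts were rounded and tested with edgeR 4.0.16 (R 4.3.3): filterByExpr by group, TMM, robust dispersions, glmQLFit and glmQLFTest with group means over the 8 libraries of the 3 groups, so that KD_Rescued borrowed the spread of the other groups. Benjamini-Hochberg adjustment was over all 16600 genes tested. Standard errors are the log2 fold change divided by the root of the F statistic. Normalised CPM divide counts by the library's total over the 16600 tested genes and by its TMM factor. The lowest count of any of the 44 genes was 180, for SDF2L1. The tests were checked on simulated data. The labels do not name separate cultures, so p-values measure the spread between libraries, which may be technical; every replicate pair differed by more than counting noise, the pairs with shEV replicate 3 most.

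The 44 genes, the other pathway genes, the marker lists and the tests were chosen with earlier results of these data known. The naming rule allowed every one of the 44, with full values for the largest change in a role, calls against the role's majority and rises of at least 1.5-fold over shEV, and of the other pathway genes at most 2 called rises and 2 called falls per role and comparison. The ERSE-II motif was added after the data were seen. Alternatives were DESeq2 1.42.0 size factors and Wald test, upper-quartile scaling, limma-voom (limma 3.58.1), no mitochondrially encoded genes, other filters, only the groups compared, a replicate block and each library left out. Protein sequences were not used here.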

Additional observations from a re-analysis of the deposited data

Results flagged for a closer look

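The library with contradictory labels entered no group, and its values are given as they stand. Its PHF19 level was 63.3 CPM, its column total 10164112 counts, and the summed level of the 44 genes was 15135 CPM, or 86.2% of the shEV mean. It was marked for a closer look because 11 of the 44 genes were higher in it than in every shEV library. For 4 of these the library exceeded every library of the 3 groups: HERPUD1 was at 749.6 CPM, EDEM1 at 477 CPM, ATF6 at 202 CPM and MCFD2 at 137 CPM. For 30 of the 44 genes its level lay between the PHF19_KD and shEV means, and for 0 genes was it below every other library. The same counts over all tested genes were not made, so none of these numbers is a result particular to the 44 genes. No group of 4 or more libraries was available for a test of single libraries that stand apart.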

How the results depend on the processing

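Each of the 3 comparisons was recomputed under 17 settings. Of the members' fold changes, 714 values in PHF19_KD against shEV, 726 in KD_Rescued against PHF19_KD and 684 in KD_Rescued against shEV kept direction and call. Where values changed, the cause was not tested. Rises in PHF19_KD against shEV numbered 7 with upper-quartile scaling and 2 either without mitochondrially encoded genes or without a filter, and falls in KD_Rescued against PHF19_KD numbered 1 without a filter. The members' median for PHF19_KD against shEV was -0.56 with upper-quartile scaling, -0.75 without mitochondrially encoded genes, -0.81 without a filter and -0.62 when filtered at 5 CPM. Taken relative to the median of all genes, it was -0.75 in the main test, with upper-quartile scaling and without mitochondrially encoded genes. Without a filter that relative value was -0.81, and filtered at 5 CPM it was -0.62. For KD_Rescued against PHF19_KD the members' median was 0.92 with DESeq2 size factors, the DESeq2 Wald test or only the groups compared, 0.80 with upper-quartile scaling, 1.00 with no filter applied and 0.88 when filtered at 5 CPM. Relative to all genes, it was 0.93 in the main test, with DESeq2 size factors and with the Wald test. The relative value was 0.92 with upper-quartile scaling or only the groups compared, 1.00 without a filter and 0.85 when filtered at 5 CPM. For KD_Rescued against shEV the members' median was 0.23 with DESeq2 size factors or the Wald test and 0.22 without a filter. Relative to all genes, these were 0.26 and 0.22, against 0.25 in the main test. Scaled by column totals, the summed level was 21240.3 CPM in KD_Rescued, 11638 CPM in PHF19_KD and 17212 CPM in shEV, and without mitochondrial genes 22378 CPM in KD_Rescued, 12874 CPM in PHF19_KD and 17774 CPM in shEV.

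Leaving out 1 PHF19_KD or shEV library at a time gave 2 to 5 rises and 36 to 37 falls (median -0.73 to -0.71) in PHF19_KD against shEV. Over all genes there were then 5372 to 5855 rises and 5357 to 5899 falls. With any 1 library left out, the median was 0.93 to 0.98 in KD_Rescued against PHF19_KD and 0.24 to 0.28 in KD_Rescued against shEV. Without a KD_Rescued library that group holds 1, so counts of calls are not given for these comparisons. The 2 rises left without PHF19_KD replicate 3 or without shEV replicate 1 were ERN1 and HERPUD1.

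Changes of sign were confined to values that were not called in the main test, and 1 of the reversed values, SPCS1 with upper-quartile scaling, was itself called. In PHF19_KD against shEV, DNAJB9 became 0.01 with upper-quartile scaling, and EDEM2 became -0.06 with no filter. SYVN1 was -0.02 without mitochondrially encoded genes, -0.08 with no filter and -0.03 to 0.04 with a library left out (-0.002 without PHF19_KD replicate 2, -0.03 without shEV replicate 3). In KD_Rescued against PHF19_KD, SPCS1 was -0.02 with DESeq2 size factors, the Wald test or only the groups compared, -0.13 with upper-quartile scaling, -0.05 when filtered at 5 CPM and -0.0001 to 0.04 with a library left out (negative without PHF19_KD replicate 1); DERL1 was -0.11 with upper-quartile scaling and -0.03 when filtered at 5 CPM. In KD_Rescued against shEV, SEC24A was -0.01 with DESeq2 size factors or the Wald test, -0.02 without a filter and -0.01 to 0.07 with a library left out (negative without KD_Rescued replicate 1), and SSR3 was -0.002 without a filter. SRP54 was -0.04 with DESeq2 size factors, the Wald test or no filter, -0.02 without mitochondrially encoded genes or with only the groups compared, and -0.03 to 0.05 with a library left out (-0.01 without KD_Rescued replicate 1, -0.03 without shEV replicate 1, -0.004 without shEV replicate 2).

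Replicate numbers were not used to pair the libraries in the main test. Deviations from group means correlated at 0.012, 0.217 and 0.084 between same-numbered PHF19_KD and shEV libraries. Between differently numbered ones they correlated at -0.199 to 0.123. With means over so few libraries, these values cannot exclude a pairing. With a replicate block the members called were 36 lower and 4 higher (median -0.72) in PHF19_KD against shEV, 39 higher and 3 lower (0.96) in KD_Rescued against PHF19_KD and 30 higher and 6 lower (0.27) in KD_Rescued against shEV.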
